A study of Mus musculus with 11 samples.

Results

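The genes described here encode the small leucine-rich proteoglycans, a family of matrix proteins. The 10 members were taken by gene symbol as named genes of the family, with no threshold on measured values: Fmod, Lum, Dcn, Bgn, Ogn, Omd, Prelp, Aspn, Podn and Ecm2, 10 of the 15274 genes in the table. All 10 passed the filter on low values and were tested. RNA sequencing had been done on injured and uninjured heart regions of mice 8 weeks old of the inbred strains C3H/HeJ (C3H) and C57BL/6J (B6), in libraries titled day 7. The groups were C3H injured (n = 2), C3H uninjured (n = 3), B6 injured (n = 3) and B6 uninjured (n = 3), 11 libraries from 6 animals, 5 of which gave both regions. No source used here names the method of injury.

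Small leucine-rich proteoglycans are secreted proteins built of leucine-rich repeats that wrap around collagen fibrils and set their spacing and thickness. Many carry chondroitin, dermatan or keratan sulfate chains, and several bind growth factors such as TGF-beta or act on cell-surface receptors. In the heart they are made mainly by fibroblasts and other stromal cells and are known as parts of the scar that forms after injury.

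Between 9699985 and 22138459 reads were assigned to genes per library. Values below are normalised read counts, that is counts divided by the library's size factor, and changes are on the log2(normalised count + 1) scale with their standard error (SE). Cardiomyocyte markers were abundant in all libraries, with summed levels of 634961 to 713123 in C3H injured, 1791730 to 2191690 in C3H uninjured, 1015100 to 1251750 in B6 injured and 1675070 to 1992350 in B6 uninjured regions. All C3H libraries had Xist between 1840 and 8478, and all B6 libraries had it between 3.14 and 12.2, while Ddx3y of the Y chromosome was at 0.888 to 3.46 in C3H and 1429 to 2221 in B6. Strain and sex therefore cannot be told apart in comparisons between the strains, which bears on Bgn in particular because that gene is on the X chromosome. Build mm9 is of B6, and whether C3H reads over variants were undercounted was not tested.

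Several members are neighbours in the genome. In the RefSeq annotation of GRCm38.p6, Ecm2, Aspn, Omd and Ogn follow one another on chromosome 13, Prelp and Fmod lie side by side on chromosome 1 and Dcn and Lum on chromosome 10, while Bgn is on X and Podn on chromosome 4. Promoter windows of 250 bases before to 50 bases after the start were found in RefSeq (GRCm38.p6) for 8 members, all but Lum and Dcn. The windows of Fmod, Bgn and Aspn are shown because these genes rose in injured C3H regions, and that of Ogn because it was lower in C3H than in B6 injured regions. Each is 5′ to 3′ on the gene's strand, and capitals mark a match on either strand to any of 5 motifs. These were the core promoter box TATAAA, the motif TGANTCA of AP-1 factors, the motif GGAATG of TEAD factors, the motif TGTGGT of RUNX factors and the short motif CAGAC of SMAD factors.
Fmod (chr1:134037004-134037303, plus strand): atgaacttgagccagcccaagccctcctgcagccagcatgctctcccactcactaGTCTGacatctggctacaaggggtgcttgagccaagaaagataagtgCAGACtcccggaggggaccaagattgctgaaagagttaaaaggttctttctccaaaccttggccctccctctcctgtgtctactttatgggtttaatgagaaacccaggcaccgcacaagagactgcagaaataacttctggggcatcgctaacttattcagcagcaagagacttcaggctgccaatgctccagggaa
Bgn (chrX:73483351-73483650, plus strand): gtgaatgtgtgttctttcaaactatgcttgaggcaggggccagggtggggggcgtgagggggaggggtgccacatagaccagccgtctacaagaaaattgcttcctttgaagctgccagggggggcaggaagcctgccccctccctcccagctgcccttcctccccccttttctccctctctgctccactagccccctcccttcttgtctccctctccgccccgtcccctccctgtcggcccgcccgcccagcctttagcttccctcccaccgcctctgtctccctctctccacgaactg
Aspn (chr13:49544193-49544492, plus strand): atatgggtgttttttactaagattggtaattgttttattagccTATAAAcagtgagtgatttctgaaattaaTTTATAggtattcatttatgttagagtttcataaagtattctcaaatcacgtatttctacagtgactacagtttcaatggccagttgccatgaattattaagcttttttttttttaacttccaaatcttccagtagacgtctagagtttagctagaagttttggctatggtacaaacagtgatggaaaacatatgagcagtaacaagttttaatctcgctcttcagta
Ogn (chr13:49607765-49608064, plus strand): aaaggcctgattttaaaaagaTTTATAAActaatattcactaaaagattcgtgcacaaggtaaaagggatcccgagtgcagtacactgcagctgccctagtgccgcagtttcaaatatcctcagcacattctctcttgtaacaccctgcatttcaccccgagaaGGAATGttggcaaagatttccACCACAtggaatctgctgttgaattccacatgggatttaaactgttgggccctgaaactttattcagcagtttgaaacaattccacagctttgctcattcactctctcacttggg

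The Fmod window held 2 matches to CAGAC, and that of the neighbouring gene Prelp held 3. CAGAC occurred in windows of 3 of the 8 members and in 49.5% of all 32544 promoter windows. TATAAA occurred in 2 members, with 2 matches each in Aspn and Ogn (those of Ogn overlap each other), and in 13.6% of all windows. The matches began at window bases 44 and 73 in Aspn and 22 and 24 in Ogn. These places are far before the start, which comes after base 250, and use as a core promoter box was not tested. GGAATG and TGTGGT were found only in Ogn among the 8 members, against 14.6% and 16.7% of all windows, and TGANTCA in 0 members against 7.79%. The Bgn window held none of the 5 motifs and was 63.7% G and C, against 31% in the Aspn window. A match of letters is a description of these windows and not of a factor's binding.

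The first question was how the family as a whole was composed. Per kb of exon, biglycan (Bgn), decorin (Dcn) and lumican (Lum) held most of the summed level of the 10 genes in every group. Biglycan held 46.6 ± 3.64% of it in C3H injured regions (SD, n = 2), against 20.0 ± 6.99% in C3H uninjured regions (SD, n = 3). In B6 the share of Bgn was 29.1 ± 5.28% in injured and 22.0 ± 5.97% in uninjured regions (SD, n = 3 each). Decorin held 14.5 ± 1.82% in C3H injured against 40.9 ± 18.8% in C3H uninjured regions, and 23.5 ± 2.75% in B6 injured against 31.7 ± 5.33% in B6 uninjured regions. The lumican share was 24.2 ± 1.26% in C3H injured, 18.7 ± 8.88% in C3H uninjured, 19.6 ± 2.56% in B6 injured and 19.7 ± 2.06% in B6 uninjured regions. By level per kb Dcn was first of the 10 in 6 of 6 uninjured libraries, and Bgn in 4 of 5 injured ones. The exception was B6 injured library 1, with 5057 for Bgn and 5340 for Dcn per kb. The shares of Bgn and Dcn overlapped in B6 injured regions, at 25.1 to 35.1% for Bgn and 21.3 to 26.5% for Dcn, and did not overlap within the other 3 groups.

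The summed level per kb was 25944 ± 5787 in C3H injured against 8417 ± 392 in C3H uninjured regions, and 19139 ± 2587 in B6 injured against 12437 ± 3442 in B6 uninjured regions (SD). Next in order came Ogn at 3.07% and Aspn at 6.02% of the sum in C3H injured regions, against 8.22% and 4.55% in C3H uninjured regions. In B6, Ogn held 11.7% in injured and 13.1% in uninjured regions, and Aspn 10.8% in injured and 8.16% in uninjured regions. Fmod held 1.73% in C3H injured against 0.166% in C3H uninjured regions, and 0.858% in B6 injured against 0.107% in B6 uninjured regions. It was last of the 10 per kb of exon in both uninjured groups, and 7th in both injured groups. In C3H uninjured regions that place was a near tie, with 14.18 for Fmod and 14.21 for Omd per kb. By coding length Fmod was 9th and Omd last in both uninjured groups. With coding length in place of exon length Bgn held 59.3% in C3H injured regions, and the group means of Bgn and Dcn kept their order in each group.

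**Figure D1:**
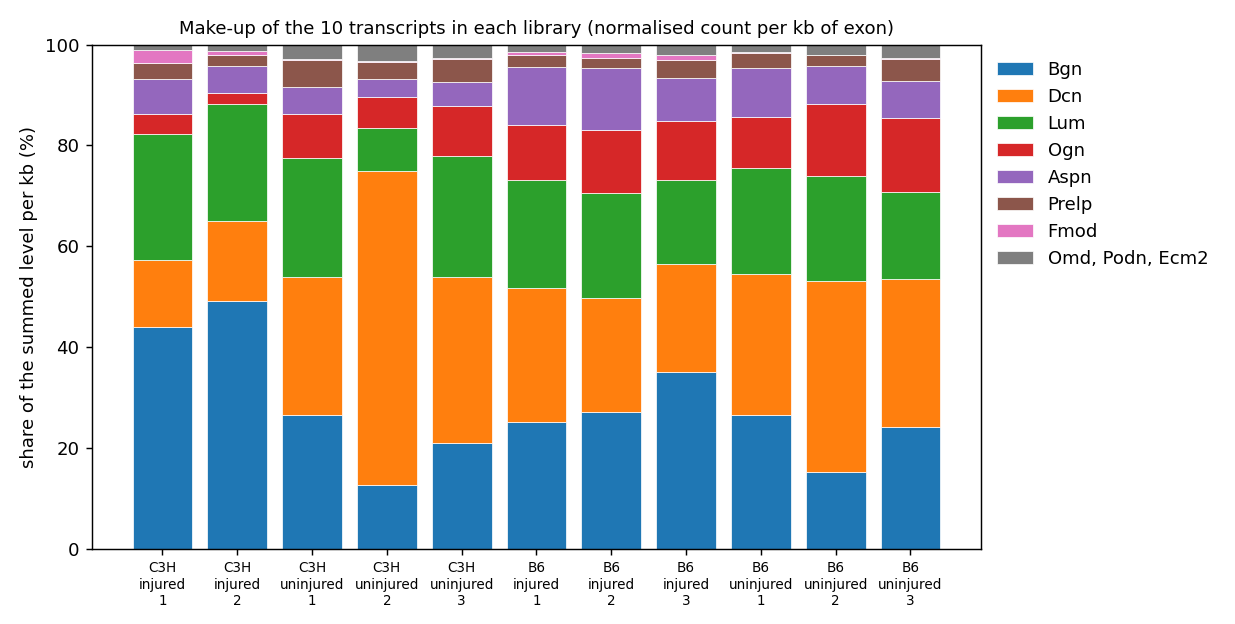
Share of each gene in the summed level of the 10 transcripts (percent, vertical axis), from normalised counts per kb of exon, for each of the 11 libraries (bars). Bgn makes up 46.6% on average in the C3H injured libraries and 20.0% in the C3H uninjured ones, and C3H uninjured library 2 has the largest Dcn share, 62.3%.

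In C3H hearts part of the family was higher in the injured region. Of the 10 members 4 rose, Fmod, Bgn, Lum and Aspn, where 30.7% of all genes were called, 15.3% higher and 15.4% lower. The other 6 did not pass in limma, and DESeq2, which called 35.7% of genes, also called Prelp. All 10 changes were positive, with a median of 0.73 on the log2 scale, against a median of 0.01 over all 14751 genes tested. For 6 members (Fmod, Lum, Bgn, Prelp, Aspn and Podn) the injured libraries lay above all uninjured ones, as they did for 29.6% of genes, and 0 members lay below, against 29.7% of genes. In whole-tissue RNA, a change in the number of cells of a type and a change in RNA per cell cannot be told apart.

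Among the class I members, Bgn encodes biglycan, which carries chondroitin or dermatan sulfate chains, binds collagen and TGF-beta, and in soluble form is a ligand of Toll-like receptors. Its normalised counts were 80713 and 65584 in C3H injured regions, against 14014, 6122 and 10993 in C3H uninjured regions. The groups were far apart, with the lower injured library well above the highest uninjured one. Bgn rose by 2.89 on the log2 scale (SE 0.42, limma adjusted p = 0.000629), a fold of 7.42 with a 95% interval of 3.92 to 14.0. Aspn encodes asporin, which lacks a sulfated sugar chain, carries a stretch of aspartates and restrains TGF-beta. It had 4818 and 2688 normalised counts in C3H injured regions, against 1087, 671 and 963 in C3H uninjured regions. Both injured libraries were above all uninjured ones, and Aspn rose by 2.02 (SE 0.39, limma adjusted p = 0.00291), a fold of 4.04 (2.24 to 7.30).

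Decorin, the closest relative of biglycan, carries a dermatan sulfate chain, limits fibril thickness and sequesters TGF-beta. Its normalised counts were 23134 and 20106 in C3H injured regions, against 13870, 28980 and 16559 in C3H uninjured regions. The groups overlapped, because C3H uninjured library 2 had the highest value of the strain. The Dcn change was 0.20 (SE 0.35, limma adjusted p = 0.695), a fold of 1.15 with a 95% interval of 0.679 to 1.94, so a rise as large as that of Bgn lies outside the interval. The ratio of Bgn to Dcn counts, chosen after the values were seen, was 3.49 and 3.26 in C3H injured regions, against 1.01, 0.211 and 0.664 in C3H uninjured regions.

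Among the class II members, Fmod encodes fibromodulin, which carries keratan sulfate and guides collagen assembly and crosslinking. It had 2621 and 599 normalised counts in C3H injured regions, against 58.4, 20.9 and 61.3 in C3H uninjured regions. The injured libraries differed from each other more than for any other riser but were both above all uninjured ones, which rested on 20 to 69 reads. Fmod rose by 4.86 (SE 0.60, limma adjusted p = 0.000237), a fold of 29.0 (11.6 to 72.1). Without C3H injured library 1 the change was 3.79, and without C3H injured library 2 it was 5.92, both past the threshold.

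Lum encodes lumican, a keratan sulfate proteoglycan known for corneal transparency that shares a collagen-binding region with fibromodulin. Its normalised counts were 18449 and 12468 in C3H injured regions, against 5043, 1655 and 5055 in C3H uninjured regions. The groups did not overlap, and C3H uninjured library 2 was the lowest of all. Lum rose by 2.12 (SE 0.47, limma adjusted p = 0.00547), a fold of 4.36 (2.16 to 8.78). Without C3H injured library 1 the change was 1.84 and the limma adjusted p was 0.0534, which ends the call.

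Prelp encodes a protein with an arginine- and proline-rich tail that binds heparan sulfate and is thought to anchor basement membranes to collagen. It had 3485 and 1799 normalised counts in C3H injured regions, against 1701, 981 and 1422 in C3H uninjured regions. The lower injured library was only just above the highest uninjured one. The change was 0.91 (SE 0.37, limma adjusted p = 0.0832). With the animal as a block the Prelp change passed the threshold, at 0.95 with a fixed block (limma adjusted p = 0.0108, 34.9% of genes called) and 0.93 with a random block (limma adjusted p = 0.0185, 41.8% of genes called), as it did in DESeq2 (0.95, adjusted p = 0.0439). Without C3H injured library 1 the change was 0.43 (limma adjusted p = 0.521), without C3H injured library 2 it was 1.39, and it did not pass without any 1 of the 5 C3H libraries. A share of 9.68% of the Prelp exon bases overlaps Gm15851 on the opposite strand, and whether the counting used strand is not stated, so reads there may be of either gene.

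Omd encodes osteomodulin, a keratan sulfate proteoglycan best known from bone, and had 11 to 150 reads per library. Its mean count was the lowest of the members in every group but B6 uninjured, where Fmod averaged 45.1 against 48.8 for Omd. The normalised counts of Omd were 21.6 and 44.5 in C3H injured regions, against 10.9, 74.3 and 10.7 in C3H uninjured regions. The groups overlapped and the 95% interval of the change ran from -1.07 to 2.18, so no difference was detectable. The C3H uninjured libraries also differed among themselves, with 11, 71 and 12 reads. Ogn encodes osteoglycin or mimecan, a class III member linked to left ventricular mass in rats. It had 3071 and 1211 normalised counts in C3H injured regions, against 1913, 1273 and 2175 in C3H uninjured regions. C3H injured library 1 was above and library 2 below all uninjured ones, and the change was 0.15 (SE 0.35, limma adjusted p = 0.778).

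Podn encodes podocan, which restrains smooth muscle cell growth in mouse arteries. It had 642 and 608 normalised counts in C3H injured regions, against 572, 567 and 579 in C3H uninjured regions. These values were close together, and the change of 0.12 had a 95% interval of -0.67 to 0.92. Ecm2 encodes a matrix protein with leucine-rich repeats related to decorin. It had 812 and 604 normalised counts in C3H injured regions, against 622, 554 and 535 in C3H uninjured regions. The groups overlapped and the change was 0.30 (SE 0.21, limma adjusted p = 0.298).

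Estimated C3H injury changes of members that lie next to each other were as follows. Fmod stood at 4.86 beside Prelp at 0.91, Lum at 2.12 beside Dcn at 0.20, and Aspn at 2.02 between Ecm2 at 0.30 and Omd at 0.55. Omd at 0.55 (SE 0.75) and its neighbour Ogn at 0.15 (SE 0.35) were within their errors of each other. Differences between genes were not tested.

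**Figure D2:**
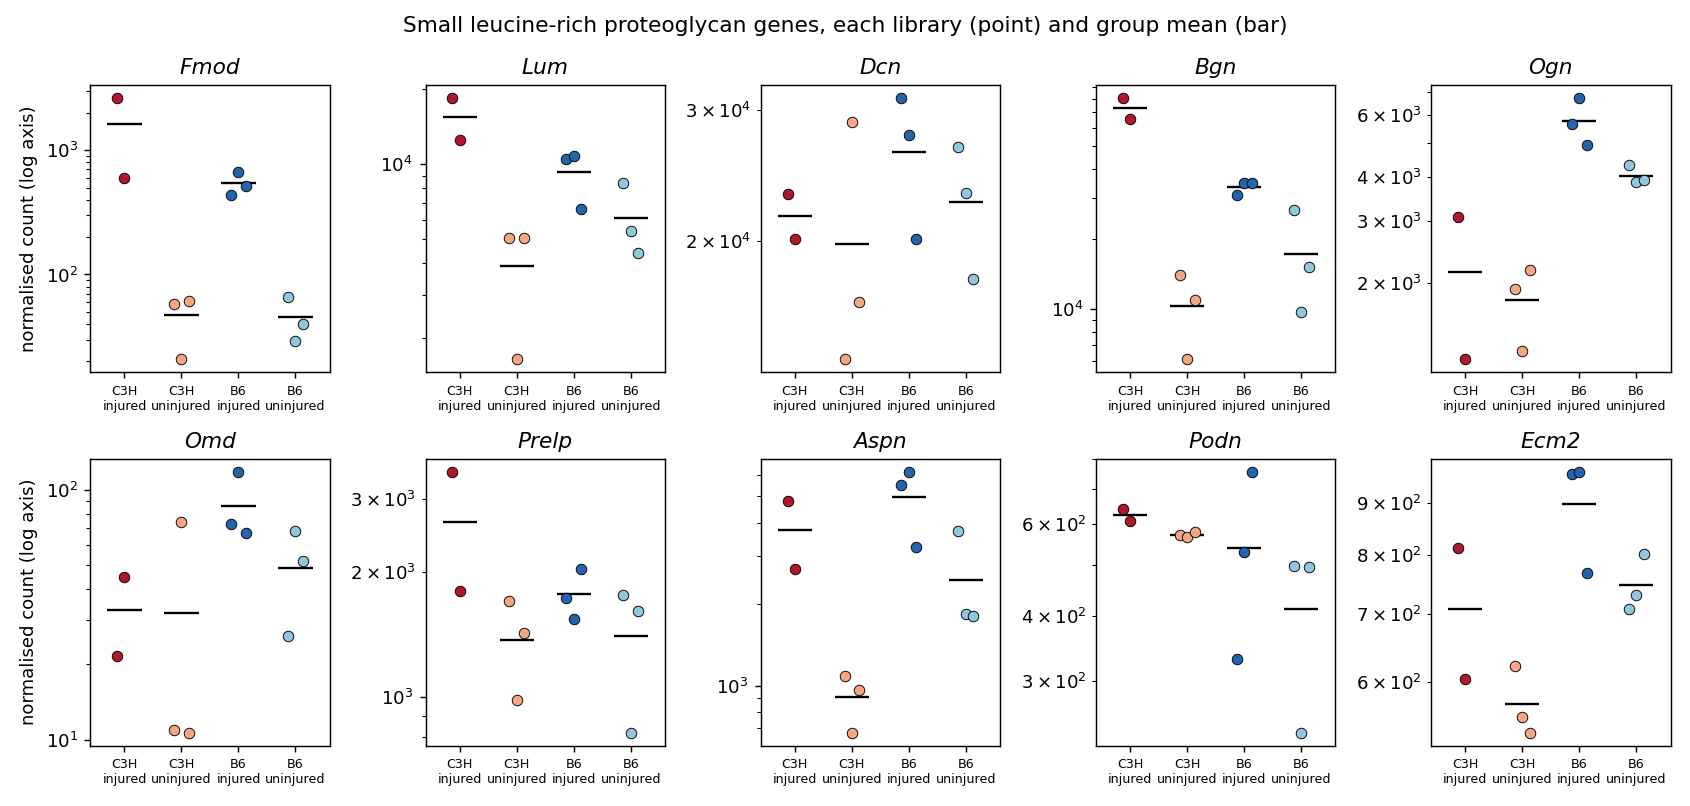
Normalised counts (vertical log axis, a separate scale for each gene) of the 10 genes in every library (points), by group, with the group mean as a bar. The C3H injured libraries of Fmod, Bgn, Lum and Aspn sit above all C3H uninjured ones, and Ogn is higher in all B6 libraries than in any C3H library.

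In B6 hearts the same 10 changes were positive, with a median of 0.57 against 0.01 over all genes, but none passed the limma test. Only 0.0136% of all genes were called in this comparison. Of the members, 3 had an unadjusted p under 0.05 (Fmod, Bgn and Aspn), as had 13.4% of all genes. Of the 10, edgeR called 0 and DESeq2 called 1, which was Fmod, with 0.305% of all genes called. In Fmod, Bgn and Ogn all injured libraries were above all uninjured ones, as for 9.83% of genes, and in 0 members they were all below, against 7.69%.

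Fmod had 435, 672 and 513 normalised counts in B6 injured regions, against 66.3, 29.0 and 40.1 in B6 uninjured regions. Every injured library was several times higher than any uninjured one, where Fmod rested on 14 to 56 reads. The change was 3.61 (SE 0.54, limma adjusted p = 0.0800), a fold of 12.2 (5.40 to 27.6). With the animal as a fixed block Fmod passed the threshold (limma adjusted p = 0.00161), in a fit that called 0.115% of genes higher. A random block also called it (limma adjusted p = 0.00292, 0.108% of genes called), as did DESeq2 (adjusted p = 6.35e-08) and limma on the B6 libraries alone (adjusted p = 0.0216).

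Bgn had 30842, 34953 and 34718 normalised counts in B6 injured regions, against 26611, 9776 and 15264 in B6 uninjured regions. The groups did not overlap, and B6 uninjured library 1 came near the injured ones. The Bgn change was 1.08 (SE 0.38, limma adjusted p = 0.364), a fold of 2.11 (1.19 to 3.74). Aspn had 5485, 6161 and 3247 normalised counts in B6 injured regions, against 3733, 1839 and 1806 in B6 uninjured regions. B6 uninjured library 1 was again high and above the lowest injured library, and the Aspn change was 1.05 (SE 0.35, limma adjusted p = 0.364).

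Lum had 10535, 10746 and 6625 normalised counts in B6 injured regions, against 8398, 5390 and 4408 in B6 uninjured regions. The groups overlapped and the change was 0.64 (95% interval -0.27 to 1.54). Ogn had 5652, 6717 and 4929 normalised counts in B6 injured regions, against 4316, 3874 and 3913 in B6 uninjured regions. All injured libraries were higher, by a change of 0.51 (SE 0.31, limma adjusted p = 0.472). Dcn had 31175, 27791 and 20111 normalised counts in B6 injured regions, against 26787, 23219 and 17756 in B6 uninjured regions, overlapping groups with a change of 0.22 (95% interval -0.46 to 0.90). The changes of Omd, Prelp, Podn and Ecm2 were 0.86, 0.41, 0.39 and 0.26, each with a 95% interval that held 0. In B6 uninjured library 1 the summed fibroblast markers were 392994, against 195547 and 230156 in the others, and their part in its Bgn and Aspn levels was not tested. That sum includes the collagen genes Col1a1, Col1a2 and Col3a1, with means of 51168, 51595 and 121431 in B6 uninjured regions.

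**Figure D3:**
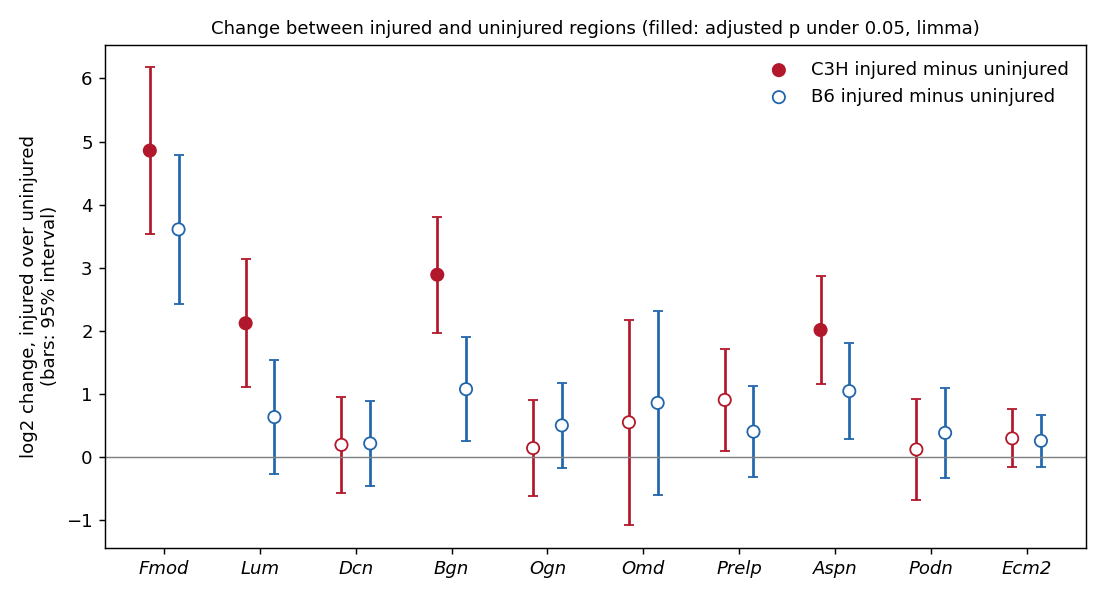
Log2 change of each gene between injured and uninjured regions (vertical axis) with its 95% interval, in C3H and in B6, where filled points have an adjusted p under 0.05 in limma. Fmod has the largest change in both strains, 4.86 in C3H and 3.61 in B6. Dcn, Ogn, Podn and Ecm2 are at 0.20, 0.15, 0.12 and 0.30 in C3H and at 0.22, 0.51, 0.39 and 0.26 in B6.

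Regions of the same animal could be set side by side in 2 C3H and 3 B6 mice. Fmod, Bgn, Lum and Aspn were higher in the injured region in 2 of 2 C3H and 3 of 3 B6 animals. Dcn, Ogn and Omd were higher in the injured region in 1 of 2 C3H and 3 of 3 B6 animals. Prelp, Podn and Ecm2 were higher in 2 of 2 C3H and 2 of 3 B6 animals. The share of all genes with such directions was not computed, so these counts are a description only. The C3H animal in which Dcn, Ogn and Omd ran the other way was mouse 2. Its Ogn values were close, 1211 in the injured and 1273 in the uninjured region, and Omd rested on 63 and 71 reads. The injured library of mouse 2 had the higher sum of neutrophil markers of its group, 1424 against 298. Its uninjured library also had the highest such sum of that group, 1803 against 65.4 and 87.9 in the others, and the highest Nppa, 69974. The other atrial markers found, Myl4 and Myl7, were at their lowest of that group there, 59.7 and 5.23. Their part in these values was not tested. Without that uninjured library the C3H changes of Fmod, Bgn, Lum and Aspn stayed past the threshold.

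**Figure D4:**
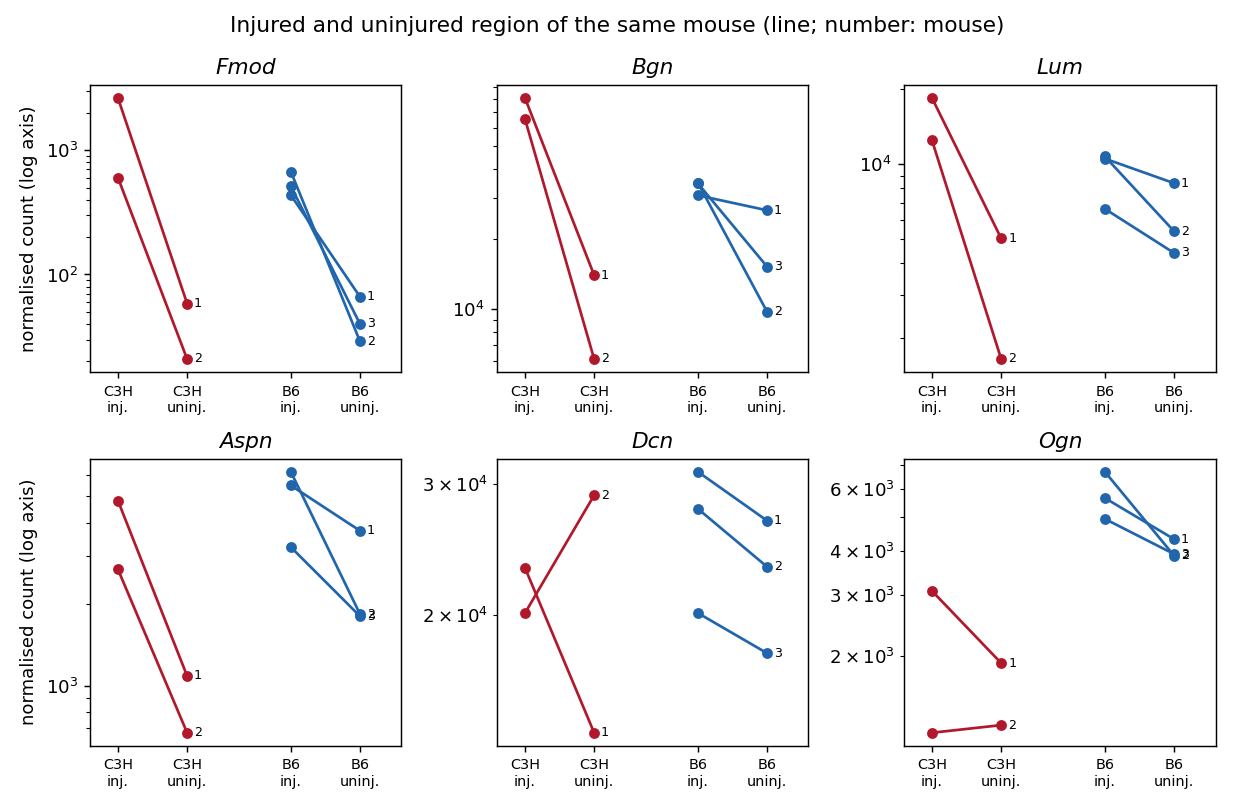
Normalised counts (vertical log axis) of 6 genes in the injured and uninjured region of the same mouse (joined points, with the mouse number), for C3H at the left and B6 at the right of each panel. Lines of Fmod, Bgn, Lum and Aspn slope down toward the uninjured region in all 5 animals. In C3H mouse 2 Dcn runs the other way, and Ogn does so only slightly.

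The difference of the injury effects, C3H minus B6, asks whether the strains responded unequally. No member passed the limma test, where 1.57% of genes were called, 1.5% with a larger and 0.0678% with a smaller change in C3H. Of the members, 2 had an unadjusted p under 0.05 (Bgn and Lum), a share near the 14.1% of all genes that did. Of the 10, edgeR called 0 and DESeq2 called 1, which was Bgn, with 4.89% of all genes called. The difference for Bgn was 1.81 (SE 0.57, limma adjusted p = 0.161), with 2.89 in C3H and 1.08 in B6. With a random block for the animal it was 1.84 and passed the threshold (limma adjusted p = 0.0432, 5.27% of genes called). For Lum the difference was 1.49 (SE 0.62, limma adjusted p = 0.304), and 1.76 with a fixed block, which passed the threshold (limma adjusted p = 0.0281, 3.33% of genes called). C3H uninjured library 3 has no partner and adds nothing to that blocked value. The difference for Fmod was 1.25, with a 95% interval of -0.52 to 3.01, and was 0.18 without C3H injured library 1 and 2.31 without C3H injured library 2. For Aspn it was 0.97, with a 95% interval of -0.18 to 2.11. For Dcn the difference was -0.02, with a 95% interval of -1.04 to 0.99, so an unequal response of up to about that size cannot be told from none.

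The strains themselves were then compared, C3H against B6, within each kind of region. In injured regions 1 of 10 members passed, Ogn, where 7.06% of genes were called, 3.72% higher and 3.34% lower in C3H. Ogn had 3071 and 1211 normalised counts in C3H injured regions, against 5652, 6717 and 4929 in B6 injured regions. The groups did not overlap, and Ogn was lower in C3H by a change of -1.57 (SE 0.35, limma adjusted p = 0.0214), a fold of 0.337 (0.199 to 0.571). The call was lost without B6 injured library 1 (limma adjusted p = 0.0665), without B6 injured library 2 (limma adjusted p = 0.0785) and without C3H injured library 2, when the change was -0.90 (limma adjusted p = 0.353). Without C3H injured library 1 it was -2.24, past the threshold.

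Bgn was at 80713 and 65584 in C3H injured regions, against 30842, 34953 and 34718 in B6 injured regions, a fold of 2.18 (1.15 to 4.12). The groups did not overlap, and the change of 1.12 had a limma adjusted p of 0.131, or 0.0379 in a limma fit of the injured libraries alone, which called 10.6% of genes. The other 8 changes ran from -1.39 for Omd to 1.24 for Fmod, and none passed in limma. DESeq2, which called 13.7% of genes, also called Bgn (1.13, adjusted p = 0.0489) and Fmod (1.58, adjusted p = 0.0416). The limma change of Fmod was 0.17 without C3H injured library 1 and 2.30 without C3H injured library 2. Besides Bgn, only Lum had higher values in all C3H than in all B6 injured libraries, as did 24.9% of genes, and Ogn and Omd had lower ones, as did 24.2% of genes.

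In uninjured regions no member passed in limma, where 3.1% of genes were called, 1.32% higher and 1.79% lower in C3H. Of the members, 2 had an unadjusted p under 0.05 (Aspn and Ogn), a share near the 16.3% of all genes that did. Of the 10, edgeR called 0, and DESeq2 called these 2, with 6.21% of all genes called. Aspn had 1087, 671 and 963 normalised counts in C3H uninjured regions, against 3733, 1839 and 1806 in B6 uninjured regions. Ogn had 1913, 1273 and 2175 normalised counts in C3H uninjured regions, against 4316, 3874 and 3913 in B6 uninjured regions. All C3H libraries were below all B6 libraries in both genes. The changes were -1.38 for Aspn (SE 0.35, limma adjusted p = 0.0568) and -1.21 for Ogn (SE 0.31, limma adjusted p = 0.0610). With a random block for the animal, which called 3.04% of genes, both passed the threshold, with limma adjusted p = 0.0456 for Aspn and 0.0480 for Ogn. Aspn also passed without B6 uninjured library 3 (limma adjusted p = 0.0389). Ecm2 was likewise lower in every C3H library, which 9.27% of genes were, and Podn was higher in every one, which 7.63% of genes were. Aspn and Ogn are next but one to each other on chromosome 13, with Omd between them and Ecm2 beside Aspn. The changes of Omd and Ecm2 in the same direction, -1.08 and -0.39, did not pass.

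Partner genes of the family were read from lists that included its relatives, the enzymes that build its sugar chains, its fibril partners, its receptors and its processing enzymes. Beside the counts for these lists, 15.3% of all genes rose and 15.4% fell in C3H injury in the main limma fit. Of 8 other members of the wider family, 5 were in the table and 3 were tested. In C3H injury Podnl1, a relative of podocan, rose by 3.37 (limma adjusted p = 0.00558) and Tsku, which encodes the secreted signalling modulator tsukushi, rose by 2.30 (limma adjusted p = 0.00365). Chadl, a relative of chondroadherin, fell by 1.98 (limma adjusted p = 0.0284), a call lost without C3H injured library 1 or 2 or C3H uninjured library 3 (limma adjusted p = 0.0626, 0.191 and 0.0903). Without C3H uninjured library 1 the Podnl1 change was 4.04. Its call was lost without C3H injured library 2 (limma adjusted p = 0.0519). In B6 the changes of Podnl1, Tsku and Chadl were 1.20, 0.68 and -0.09, and none passed.

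Of 22 tested genes for chondroitin and dermatan sulfate synthesis, 10 rose in C3H injury and 0 fell, with a median of 0.74. Xylt1, which starts the chain by adding xylose to the core protein, averaged 179 normalised counts in C3H injured against 8.58 in C3H uninjured regions, a change of 5.91 (limma adjusted p = 0.0126). Chst11, a chondroitin 4-O-sulfotransferase, averaged 1239 in C3H injured against 143 in C3H uninjured regions, a change of 3.14 (limma adjusted p = 0.000371). The Xylt1 change was 7.49 without C3H uninjured library 1, 6.58 with a pseudocount of 0.5, 4.38 in edgeR and 4.39 in DESeq2. Its call was lost without either C3H injured library (limma adjusted p = 0.0600 and 0.0879) and in DESeq2 (adjusted p = 0.110). Of 10 tested genes for keratan sulfate and tyrosine sulfation 3 rose and 0 fell. With the fixed block, the random block, DESeq2 and without C3H uninjured library 1, 5 rose. Those settings called 17.7, 20.7, 17.3 and 15.9% of all genes higher. B3gnt7, which extends keratan sulfate, changed by 2.37 (limma adjusted p = 0.00167), and B3gnt2, of the same enzyme family, by 0.81 (limma adjusted p = 0.0160), a call lost without either C3H injured library (limma adjusted p = 0.0690 and 0.113).

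Collagens are what most of these proteoglycans bind. Of 10 tested fibrillar collagen genes, 9 rose in C3H injury and 0 fell, with a median of 3.17. Col11a1, a chain that limits fibril thickness, averaged 3553 normalised counts in C3H injured against 38.6 in C3H uninjured regions, a change of 7.31 (limma adjusted p = 0.000163). Without C3H uninjured library 1 the Col11a1 change was 8.38, and without C3H uninjured library 2 it was 6.60. In edgeR it was 6.53 and in DESeq2 6.52. Col24a1, a minor fibrillar chain, changed by 4.18 (limma adjusted p = 0.0134), a call lost without either C3H injured library (limma adjusted p = 0.0972 and 0.0555), in limma on the C3H libraries alone (adjusted p = 0.0727) and in DESeq2 (adjusted p = 0.0515). The Col24a1 change was 2.87 in edgeR and 2.87 in DESeq2. The count of 9 was 5 in the fit of the C3H libraries alone, which called 12.7% of all genes higher. With either C3H injured library left out, both that count and the share of all genes called higher were lower.

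Of 11 other fibril partners 8 rose and 0 fell, with a median of 2.56, led by Col12a1, a fibril-associated collagen, at 5.83 (limma adjusted p = 0.00166) and Comp, a cartilage matrix protein that binds collagen, at 4.33 (limma adjusted p = 0.00186). The Col12a1 change was 4.85 without C3H uninjured library 2 and 7.16 without C3H uninjured library 1. In edgeR it was 4.74 and in DESeq2 4.73. The count of 8 was lower without C3H injured library 2, as was the share of all genes called higher.

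Of 20 tested receptors and growth factors that these proteoglycans bind, 13 rose and 1 fell in C3H injury, with a median of 1.23. Fewer rose without C3H injured library 2, when fewer of all genes were called higher. Wisp1, a secreted Wnt-induced protein that binds decorin and biglycan, averaged 1658 normalised counts in C3H injured against 118 in C3H uninjured regions, a change of 3.93 (limma adjusted p = 0.000298). Itga2, a collagen receptor subunit, changed by 3.47 (limma adjusted p = 0.0393) with means of 27.1 in C3H injured and 2.66 in C3H uninjured regions. That call was lost without C3H uninjured library 2 or 3 (limma adjusted p = 0.0816 and 0.121) and in edgeR (adjusted p = 0.0512). It was also lost with a pseudocount of 0.5 (limma adjusted p = 0.0558) and with quantile scaling (limma adjusted p = 0.0503). Nor did it hold without C3H injured library 1 or 2, when the Itga2 change was 3.31 and 3.63. Bmp4, a growth factor bound by biglycan, fell by 0.92 (limma adjusted p = 0.0239), a call lost without C3H injured library 2 or C3H uninjured library 2 and in the C3H libraries alone (limma adjusted p = 0.239, 0.0687 and 0.0568). Tlr2 and Tlr4, the receptors for soluble biglycan, rose by 2.60 and 1.37 (limma adjusted p = 0.000100 and 0.00861), and C3H/HeJ mice are known to carry a defective Tlr4 allele. The Tlr4 call was lost without C3H injured library 2 (limma adjusted p = 0.0958). Chadl, Bmp4, Tlr2, Tlr4 and Bmp1 were named after their values were seen.

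Of 13 tested processing enzymes 6 rose and 0 fell, with a median of 1.13. Mmp13, a collagenase that cleaves fibromodulin and biglycan, changed by 4.21 (limma adjusted p = 0.000757), or 3.47 without C3H injured library 1 and 4.95 without library 2. Adamts4, an aggrecanase, changed by 3.23 (limma adjusted p = 0.00225). It was 3.82 without C3H uninjured library 1. Bmp1, the protease that removes the biglycan propeptide, changed by 1.96 (limma adjusted p = 0.00246). In B6 injury 0 genes of each of these lists passed in limma, edgeR and DESeq2, with medians from 0.17 for keratan sulfate and tyrosine sulfation to 1.04 for the other fibril partners.

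**Figure D5:**
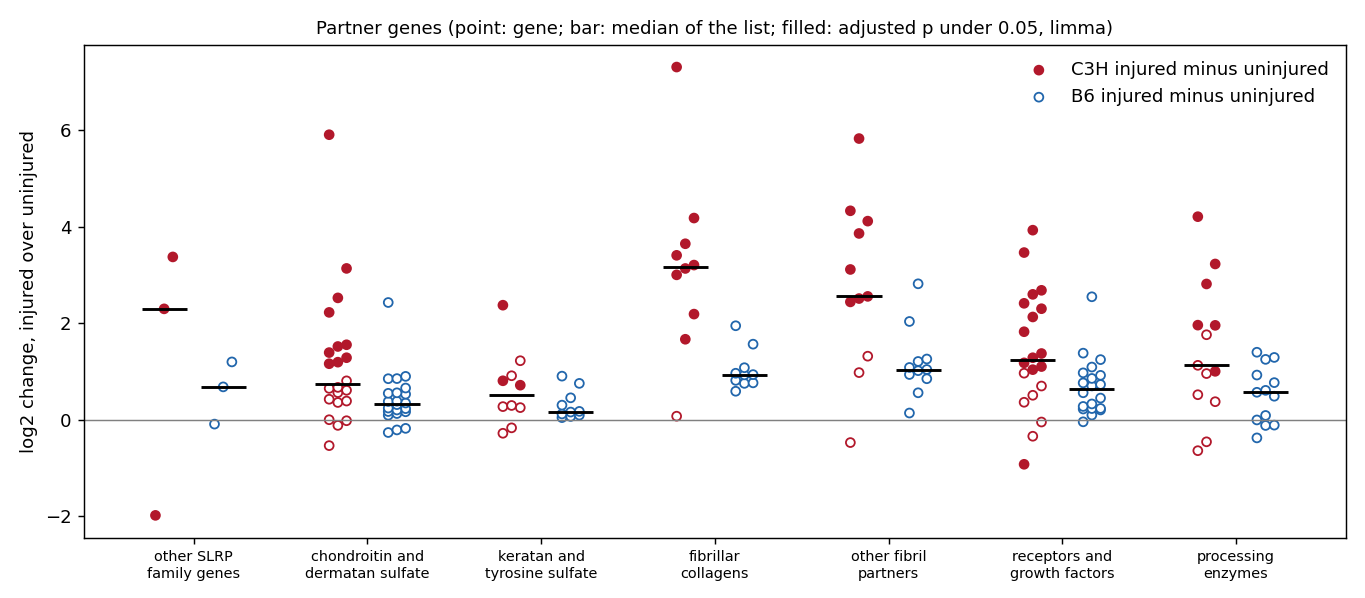
Log2 change between injured and uninjured regions (vertical axis) of the tested genes (points) of 7 partner lists, in C3H and in B6, with the list median as a bar, where filled points have an adjusted p under 0.05 in limma. The median of the fibrillar collagens is 3.17 in C3H and 0.93 in B6, and no B6 point is filled.

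Markers of other cells moved with injury beside these genes. Of all genes, 15.3% rose and 15.4% fell in C3H injury, and 0.0136% rose and 0% fell in B6 injury. In C3H, 9 of 10 activated fibroblast markers without proteoglycans rose (most abundant Postn), and their summed level was 48331 to 77879 in injured against 5085 to 17824 in uninjured regions. In B6 1 of the 10 rose, and the sum was 55662 to 78180 in injured against 24453 to 51561 in uninjured regions. Of 11 macrophage markers (most abundant Lyz2) 9 rose in C3H, with sums of 81291 to 144436 in injured against 13031 to 23661 in uninjured regions, and 0 in B6, with 37838 to 52271 in injured against 23830 to 33127 in uninjured regions. Of 12 cardiomyocyte markers (most abundant Myh6) 9 fell in C3H and 0 in B6. Of 12 fibroblast markers without proteoglycans (most abundant Col3a1) 5 rose and 1 fell in C3H, and 0 passed in B6. Their sum was 514755 to 700455 in C3H injured against 51937 to 289724 in C3H uninjured regions, and 422244 to 431249 in B6 injured against 195547 to 392994 in B6 uninjured regions. In C3H injured regions most of it was Col1a1, Col1a2 and Col3a1 (means 195310, 156817 and 217364), also counted above as fibrillar collagens. These collagens rose, as did Mfap5 and Pdgfra, and Gsn fell. Ddr2, Dpt and Fbln1 changed by 0.77, 0.89 and 0.59, and Tcf21, Pi16 and Tcf4 by -0.28, -0.08 and 0.07, none past the threshold. From a list of 13 cartilage and bone markers (most abundant Sox9), 6 were in the table and 3 were tested, and these 3 rose in C3H. Sums of the list were 302 to 919 in injured against 31.4 to 193 in uninjured regions. Acan averaged 1.38 in C3H uninjured and 1.57 in B6 uninjured regions, so it passed the filter on low values only through injured libraries. Matn3 averaged 8.72 in C3H injured against 0.990 in C3H uninjured regions. The filter thus favoured a rise, and 3 of 3 is no measure of the list. The tendon marker Tnmd was at 0 in all C3H uninjured libraries, and 0 of 3 tested tendon markers (most abundant Egr1) passed in either strain. Among the other lists in C3H injury, 1 of 5 neutrophil markers rose (Csf3r) and 2 of 8 endothelial markers fell (Egfl7 and Emcn). Of 7 mural markers 1 rose (Pdgfrb) and 1 fell (Kcnj8). Of 7 skeletal muscle markers 1 fell, Ckm, which is also counted above among the cardiomyocyte markers. The most abundant genes of these lists were S100a9, Cdh5, Abcc9 and Ckm, of which only Ckm was called. Epicardial, atrial, lymphocyte and lung markers (most abundant Msln, Nppa, Cd79b and Sftpb) had 0 calls among 7, 3, 7 and 1 tested. In B6 injury these 8 lists had 0 calls. The part of these cells in the proteoglycan levels was not tested.

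Each member other than Podn was also set beside the 1 other gene whose pattern over the 11 libraries was most like it by Pearson correlation, among 12005 genes with a mean of at least 50, as a description only, since these libraries share animals and fall into 4 groups. Bgn was nearest to Loxl3, a lysyl oxidase relative that crosslinks collagen (r = 0.989), and Aspn to Sfrp1, a secreted Wnt antagonist (r = 0.978). Lum was nearest to Dap (r = 0.980), Fmod to Atad2 (r = 0.970) and Prelp to Reck, a membrane inhibitor of matrix metalloproteinases (r = 0.964). Dcn was nearest to the chemokine gene Cxcl1 (r = 0.954), Ogn to Phf11d (r = 0.950), Ecm2 to the protocadherin gene Pcdhb14 (r = 0.942) and Omd to Bicd1 (r = 0.906).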

How the data were processed

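The 11 libraries were grouped by strain and region from their labels. Per the submitters' processing notes, TopHat2 2.0.11, HTSeq 0.6.1, DESeq and mouse build mm9 were used. No source used here names the annotation or strandedness. The deposited signal is gene-level counts divided by a size factor. In each library 100% of values were whole multiples of 1 step (tolerance 1e-06), which gave back 9699985 to 22138459 reads, and no blank or summary rows were present.

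Values were fitted as log2(normalised count + 1), which can understate changes of low genes, for the 14751 genes that reached 10 in 2 or more libraries. Each limma change is a difference of group means of these log values and not a ratio of mean counts. limma 3.58.1 in R 4.3.3 (4 group means, mean-variance trend) was used, two-sided, with Benjamini-Hochberg adjusted p-values over those genes and a threshold of 0.05. Read counts recovered from the deposited values were tested with edgeR 4.0.16 and DESeq2 1.42.0 as alternatives. Other alternatives were a pseudocount of 0.5, no filter, the compared groups alone, TMM and quantile scaling, each library left out, coding length, and the animal as a fixed or random block. Scripts were tested on simulated data.

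The labels name the mouse, so regions of the same number in a strain pair; their residuals correlated at 0.305 and 0.575 in C3H and 0.276, -0.0140 and 0.524 in B6 (0.392 in the random block). The labels do not say whether library preparation was separate, so p-values measure the spread between these libraries. Depth limits low genes, and 1 library per animal and region was available. The members and lists were chosen with earlier results of these data known. Genes were named by rule: all members, the 2 largest changes past the threshold per partner list in C3H injury, the nearest-pattern gene of each member and the most abundant gene of each marker list, with exceptions named in the text. Exon and coding lengths are from GENCODE vM21 (GRCm38), and promoters from RefSeq (GRCm38.p6). Of the other listed relatives, Epyc, Kera and Nyx were not analysed here. The nearest-pattern gene of Podn is not reported here.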

Additional observations from a re-analysis of the deposited data

How the results depend on the processing

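Across all alternatives, member changes kept direction and side of the threshold in 694 of the repeats, 18 passed and 4 lost the threshold, and 34 changed sign, all from changes that had not passed; the cause was not tested. The number of members called in C3H injury stayed within 3 to 5. In B6 injury it was 0, but 1 (Fmod) in the fit of the compared groups alone, in DESeq2 and with the fixed or random replicate block. For the difference of injury effects it was 0, but 1 in DESeq2 (Bgn), with the fixed block (Lum) and with the random block (Bgn). Between strains in injured regions it was 1, but 2 in the compared groups alone, 3 in DESeq2 and 0 to 1 with a library left out; in uninjured regions it was 0, but 2 in DESeq2 and with the random block, and 0 to 1 with a library left out. Beyond these and Prelp in C3H, the blocks changed no member call.

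Over all genes, C3H injury called 4527, against 1708 without C3H injured library 2 and 2801 without library 1. B6 injury called 2, against 45 in DESeq2, 20 with the fixed and 16 with the random block, and 1 to 2 with a library left out. The difference called 231, against 722 in DESeq2, 491 and 777 with the fixed and random block, and 10 to 272 with a library left out. Strain called 1042 in injured regions (2014 in DESeq2, 101 to 871 with a library left out) and 458 in uninjured regions (916 in DESeq2, 191 in the compared groups alone, 213 to 788 with a library left out). Quantile scaling moved the median of all genes in C3H injury to -0.11, against 0.01, and all 10 members stayed positive.

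With coding length the Bgn share was 59.3% in C3H injured, 25.9% in C3H uninjured, 39.2% in B6 injured and 29.3% in B6 uninjured regions. In the same order the Dcn share was 18.4%, 50.6%, 31.6% and 42.2%, and the Lum share 13.5%, 10.7%, 11.6% and 11.5%. Sign changes under other settings were the Ecm2 difference at -0.0096 with TMM, -0.040 with quantile scaling and -0.0061 with the fixed block, the Fmod strain change in uninjured regions at 0.029 with TMM, 0.14 with quantile scaling, 0.066 in edgeR and 0.043 in DESeq2, and that of Prelp at -0.0084 with quantile scaling and -0.032 in DESeq2. With a library left out, the difference ranged from -0.24 to 0.29 for Dcn, -0.57 to 0.091 for Podn, -0.17 to 0.25 for Ecm2, -0.81 to 0.59 for Omd and -1.03 to 0.31 for Ogn. The strain change ranged from -0.019 to 0.58 for Podn and -0.83 to 0.0092 for Aspn in injured regions, and from -0.28 to 0.48 for Fmod and -0.34 to 0.23 for Prelp in uninjured regions. The C3H injury change ranged from -0.53 to 0.82 for Ogn and from -0.023 to 0.51 for Dcn. Few reads were available for Omd (11 to 150 reads) and for Fmod in uninjured regions (14 to 69 reads). The part of depth in their spread was not tested.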
